A study of Oryza sativa Japonica Group with 8 samples.

Results

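The fifth-leaf blades of mock-treated rice, the control arm of a study of linalool-responsive genes, are described here by the level of each gene and by how far that level moved between 4 leaf pools. The members are the loci with at least 1 probe well above background on all 4 mock arrays, each represented by its probe with the highest mean signal. They numbered 20902 of the 29690 loci on the array (70.4%). A further 2254 loci were above background on 1 to 3 mock arrays and 6534 on none. The dimmest member had a level of -6.39, and the 572 loci that passed on 3 arrays had a median of -6.05, so the 2 sets adjoin at the bottom of the scale.

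The series compared 4 mock arrays with 4 arrays of linalool-exposed plants, and the linalool arrays were not used here. Each mock array held RNA from the blades of at least 3 pooled plants of the cultivar Hinohikari, a japonica rice, at the five-leaf stage, grown at 25 degrees C and 60 to 80% relative humidity. The labels differ on the control: the descriptions call it mock-treated and sampled after 24 h, whereas the treatment field reads none. The design text calls the 4 replicates biological, and nothing in the labels describes separate growth of the pools, so the spread reported below is that between these 4 arrays.

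A rice leaf blade is mostly photosynthetic tissue. Nuclear genes encode the small subunit of Rubisco, the proteins that bind antenna chlorophyll and many photosystem subunits, and their transcripts are known to be among the most abundant in green leaves. Other gene families, such as heat shock proteins, DREB1 factors and JAZ repressors, are known for rapid changes in transcript level after heat, cold or wounding. In a pool of whole blades, fewer cells of a type and less RNA per cell cannot be told apart.

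Levels are given as log2 of the processed spot intensity minus the 75th percentile of that array, so 0 is the 75th percentile and 3 is 8-fold above it. The brightness of a spot also depends on its probe, so the order below is an order of probe signals and not of transcript numbers. The files name loci only by identifier. Symbols are from general knowledge of rice locus names, and one is printed only where the RefSeq gene table of assembly ASM3414082v1 holds that symbol on the same chromosome and at a place that fits the order of the identifiers. Of 522 recalled loci, 24 had been recalled under several symbols and were given none. Of the 499 pairs of locus and symbol left, 286 met this test, 170 had a symbol that the table does not hold, and 43 failed it: 29 had the symbol on another chromosome and 14 at another place. The gene lists rest on the same recall: of their 217 members, 96 have a symbol that met the test, and the others may include wrongly assigned loci. Counts are therefore given for a whole list and, in many places, for its members with such a symbol.

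The 4 arrays lay on 1 slide, and no spot was saturated. Their 75th percentiles were 871, 850, 861 and 1000 intensity units for replicates 1 to 4, and 73.3 to 76.2% of spots were well above background. Probes spotted repeatedly on an array had a median SD of 0.09 to 0.10 between spots on the log2 scale. Replicate 1 stood apart from the others. Its correlations with them across members were 0.975 to 0.983 (across genes, which are not independent replicates), against 0.989 to 0.994 among replicates 2, 3 and 4. Replicate 1 differed 2-fold or more from each other array in 845 to 1369 members, against 275 to 499 for the other pairs.

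The signal was concentrated in few genes. The 10 brightest members held 7.78% ± 0.436 (SD, n = 4) of the summed signal of all members, the 100 brightest 36.5% ± 1.25 and the 1000 brightest 69.9% ± 0.534. The 100 brightest held 35.79, 38.42, 36.01 and 35.96% on replicates 1 to 4, highest on replicate 2. It took 254 ± 15.8 genes (SD, n = 4; 231 to 266) to reach 50% of the signal. The median level of all members was -1.31, 1215 members were at 3 or more, and 68.2% lay below the 75th percentile of the array.

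Genes of photosynthesis dominated the top of the ranking. Of 64 loci in the lists for the light-harvesting antenna, the photosystems and electron transport, the Calvin cycle and photorespiration, 63 were members, 37 of them among the 100 brightest, 14 among the 25 brightest and 59 among the 1000 brightest. Their median level percentile was 99.7, and it was 99.6 over the 8 members with a symbol that met the test. Together these 63 genes held 18.12, 19.92, 16.89 and 18.70% of the member signal on replicates 1 to 4 (18.4% ± 1.26, SD, n = 4), lowest on replicate 3.

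The brightest listed antenna loci differed little between the 4 arrays. Os09g0346500, recalled as an antenna locus with no symbol that met the test, ranked 6 and measured 9.13, 9.17, 9.05 and 8.88 on replicates 1 to 4. Os01g0600900, also listed with the antenna, ranked 8 and measured 9.02, 9.24, 8.87 and 8.99. RCA (Os11g0707000), Rubisco activase, which frees the active site of Rubisco, ranked 7 at 9.13, 9.02, 8.89 and 9.09. The highest and lowest arrays differed by 0.23 for RCA and 0.37 for Os01g0600900. PSBW (Os01g0773700), a small subunit of photosystem II, measured 9.01, 9.03, 8.94 and 8.87. PETE (Os06g0101600), plastocyanin, which carries electrons to photosystem I, measured 8.66, 8.76, 8.51 and 8.56. RCA, PSBW and PETE are the genes among the 25 brightest with a symbol that met the test. The brightest locus, Os01g0200700, listed with the metallothioneins and likewise without such a symbol, measured 9.33, 9.35, 9.36 and 9.12. The loci ranked 2, 5 and 11, Os08g0455300, Os04g0236400 and Os10g0353800, have probes designed on 1 shared transcript, so their ranks are not separate observations.

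Further down, PSAH, a photosystem I subunit, had a mean of 7.74, and PETC, the Rieske iron-sulphur protein of the cytochrome b6f complex, 6.66. RPE, ribulose-phosphate epimerase of the Calvin cycle, had a mean of 6.39, and GLO1, glycolate oxidase of photorespiration, 7.16. LFNR1, leaf ferredoxin-NADP reductase, had a mean of 3.76. Of the 63 genes, 3 had an SD of 0.5 or more, and none of the 8 with such a symbol did. The share is near that of the brightest of 10 equal bins of level, 4.83%, and of all members, 7.13%.

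**Figure D1:**
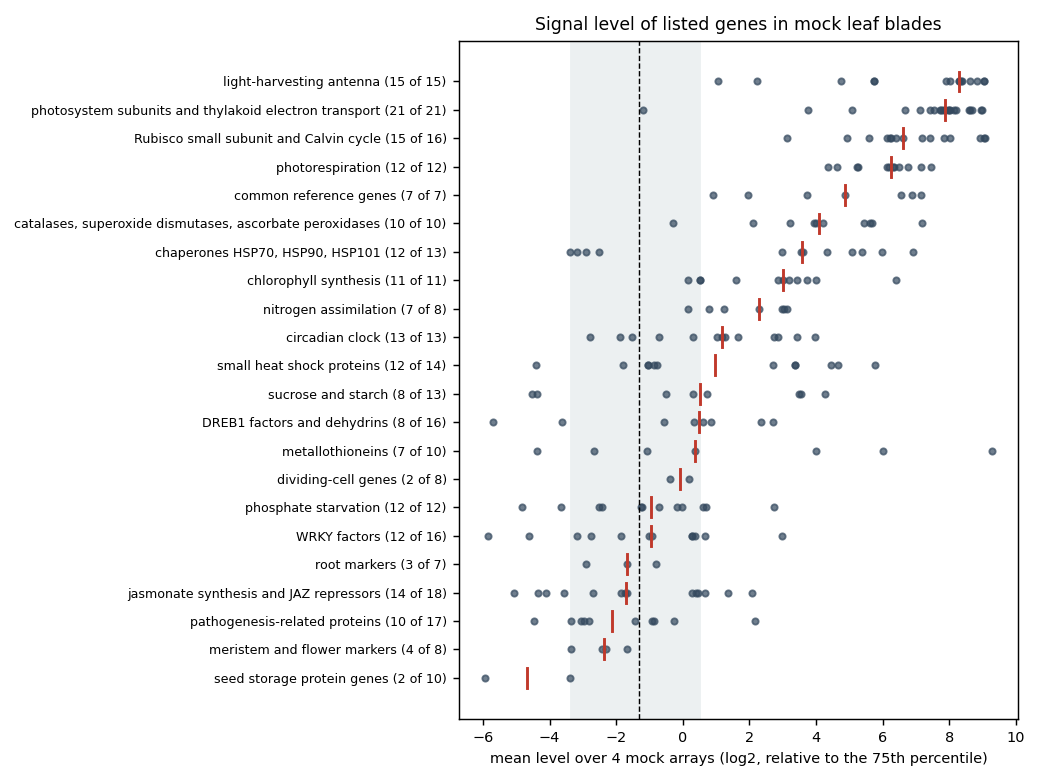
Mean level over the 4 mock arrays (x axis, log2 relative to the 75th percentile of each array) of every member of each gene list (y axis, members of listed loci in parentheses). Points are genes, red bars are list medians, the dashed line is the median of all members at -1.31 and the grey band spans their middle 50% from -3.34 to 0.52. The 4 photosynthesis lists sit at the right, with medians from 6.25 to 8.30.

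The other lists of leaf functions lay lower. Common reference genes had a median percentile of 98.3, chaperones 96.0 and nitrogen assimilation 90.7. Over members with a symbol that met the test, it was 87.9 for 2 reference genes, 62.2 for 2 chaperones and 94.1 for 3 nitrogen genes. All 11 chlorophyll-synthesis loci were members, with a median percentile of 94.2 (89.8 over the 8 with such a symbol). CHLH, CHLI and CHLD, the subunits of magnesium chelatase, which commits protoporphyrin to chlorophyll, had means of 4.01, 3.01 and 1.59. All 10 loci of catalases, superoxide dismutases and ascorbate peroxidases were members, with a median percentile of 97.3. APX2, a cytosolic ascorbate peroxidase that removes hydrogen peroxide, measured 7.22, 7.14, 7.17 and 7.18. The clock list had 13 of 13 members at a median percentile of 82.2 (93.2 over the 7 with such a symbol). It was led by GI, a clock component that links to flowering, at 3.76, 4.04, 3.91 and 4.15. None of the 13 had an SD of 0.5 or more, where 7.13% of all members and 4.40% of the brighter 50% did, so the count is near the background for a list of this size. ACT1, an actin gene used as a reference, measured 0.75, 0.83, 1.08 and 0.95.

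The marker lists of other tissues and of dividing cells each had a smaller share of members than the 70.4% of all loci. A smaller share was not particular to them. It was also found for DREB1 factors and dehydrins (8 of 16), pathogenesis-related proteins (10 of 17), sucrose and starch (8 of 13) and metallothioneins (7 of 10). None of the 3 secondary-wall cellulose synthase loci was a member: CESA7 and CESA9 were above background on no array and CESA4 on some. Only 2 of 10 seed storage loci were members, and GLUA2, a glutelin gene, was the brighter at -3.40. Of 8 dividing-cell loci, 2 were members: CDKB1, a cyclin-dependent kinase, at 0.20, and PCNA, the DNA polymerase clamp, at -0.37. Root markers gave 3 of 7, among them the iron transporter gene IRT1 at -0.81 and the silicon transporter gene LSI1 at -1.67. Meristem and flower markers gave 4 of 8 with a median percentile of 36.3, and MADS1 of that list and CDKB2;1 of the dividing-cell list were above background on some arrays.

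Most genes varied little between pools. The median SD over the 4 arrays was 0.18, and 1488 members (7.13% of the 20883 with a value on all 4 arrays) had an SD of at least 0.5, called variable here. The largest SD just under the line was 0.4999, so it divides a continuum. An SD of at least 1 was found for 296 members (1.42%), and the range between the highest and the lowest array reached 1, a 2-fold difference, for 1994 (9.55%). Dim genes were variable more often: 14.1% were variable in the dimmest of 10 equal bins of level, against 4.83% in the brightest. Within the brighter 50% of members, 460 of 10451 (4.40%) were variable.

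A second probe mostly gave the same picture. Of 372 variable members with a second passing probe, 305 (82.0%) were variable by it too, and in 346 (93.0%) the same array was farthest out in the same direction. Of 5823 other members with a second probe, 103 (1.77%) were variable by it.

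**Figure D2:**
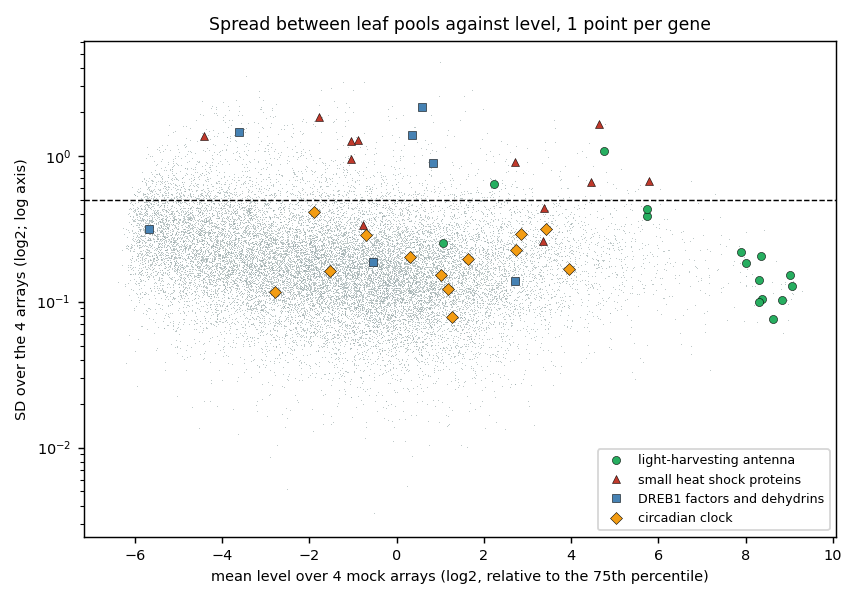
SD over the 4 mock arrays (y axis, log2, log axis) against mean level (x axis, log2 relative to the 75th percentile), with 1 grey point per gene and 4 lists marked. The dashed line is the SD of 0.5, above which lie 1488 genes, 7.13% of all members, and 9 of the 12 small heat shock genes.

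Replicate 1 set most of the variable genes apart. In 647 variable members (3.1% of all) it was the array farthest from the mean of the other 3 and was higher, and in 238 (1.14%) it was lower. Replicate 2 was farthest and high in 185 (0.886%) and low in 7. Replicate 3 was farthest and low in 194 (0.929%) and high in 153 (0.733%), and replicate 4 was farthest and low in 56 and high in 8. Irrespective of SD, replicate 1 was farthest and high in 23% of all members and replicate 2 in 6.51%. With normexp background correction that order reversed, to 15.5% for replicate 1 and 26.9% for replicate 2. Among variable members it did not: with normexp, replicate 1 was farthest and high in 367 of 702 and replicate 2 in 101. By the main values, 1 array stood clear of the others by Dixon's gap criterion in 7.04%. Without replicate 1 the variable members numbered 850, and without replicate 2, 3 or 4 they numbered 1910, 1369 and 2053.

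**Figure D3:**
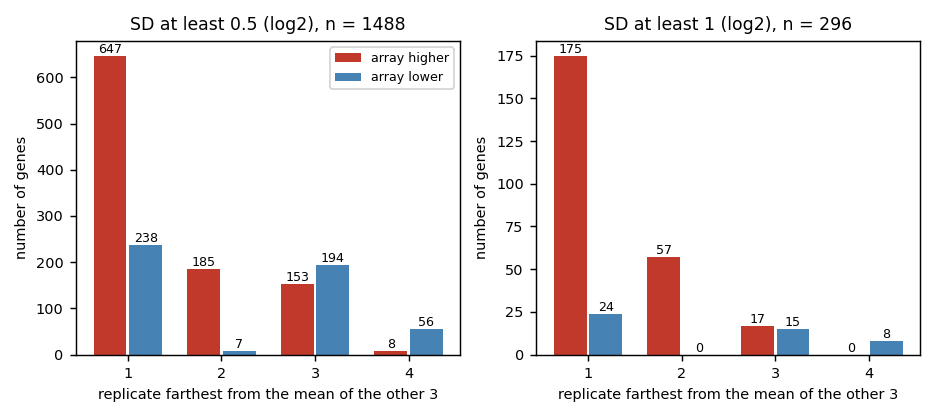
Number of variable genes (y axis) by the mock replicate farthest from the mean of the other 3 (x axis), split by whether that array was higher (red) or lower (blue). Left, 1488 genes with an SD of at least 0.5, of which 647 had replicate 1 high; right, 296 genes with an SD of at least 1, of which 175 did.

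The most variable gene was Os01g0186900, at 5.89, 2.57, -4.30 and -0.17. Its SD was 4.31, and its second probe gave an SD of 4.30. CML31 (Os01g0955100), a calmodulin-like protein gene, measured 2.78, 0.60, -4.52 and -1.86. ABA8OX1 (Os02g0703600), an abscisic acid 8'-hydroxylase that inactivates the hormone, measured 3.05, -1.37, -3.09 and -2.58. In both, replicate 1 was highest and replicate 3 lowest. JAZ10 (Os03g0181100), a repressor of jasmonate responses, measured 2.24, -1.97, -3.83 and -3.42, and DREB1B (Os09g0522000), a transcription factor of the cold response, measured 3.58, 0.62, -1.49 and -0.34. WRKY24 (Os01g0826400), a WRKY transcription factor, measured 0.02, -3.75, -2.17 and -5.19. Replicate 1 was highest in all of these and in 20 of the 25 most variable genes (35.3% of all members), while replicate 2 was highest in the other 5. Among those 5 was EXPB3 (Os10g0555900), a beta-expansin gene of cell wall loosening, at -5.72, -0.99, -3.49 and -5.30. Without replicate 1, 21 of the 25 still had an SD of at least 0.5.

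**Figure D4:**
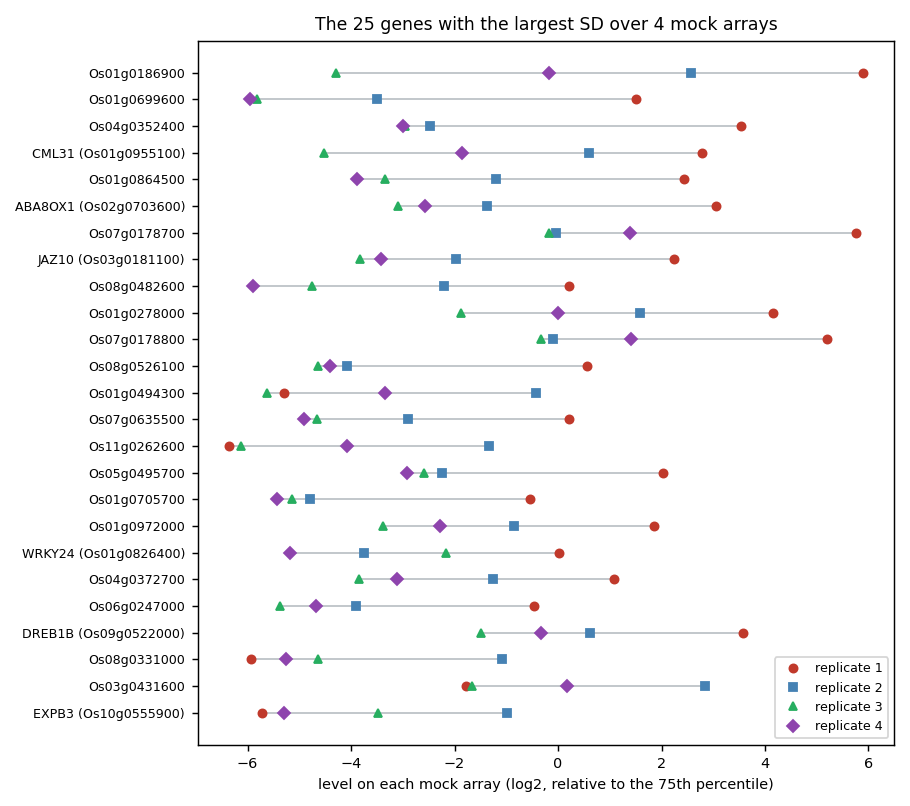
Level on each mock array (x axis, log2 relative to the 75th percentile) of the 25 genes with the largest SD (y axis, largest at the top), with 1 symbol per replicate. Replicate 1 (red circles) is the highest in 20 genes and replicate 2 (blue squares) in 5.

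Heat shock and chaperone genes were high on replicate 1. Of 12 small heat shock members, 9 were variable (7.13% of all members), all with replicate 1 farthest and high (3.1% of all members), and of the 7 with a symbol that met the test 5 were variable. The list median was 2.08, 0.62, 0.74 and 0.65 on replicates 1 to 4. Os01g0184100, a listed locus without such a symbol, measured 7.11, 3.59, 3.97 and 3.93, 11.5-fold between the highest and the lowest array. HSP24.1 measured 6.77, 5.30, 5.55 and 5.51. Its second probe was also farthest and high on replicate 1, but with an SD of 0.48 it was not variable. HSP17.9B, the least variable of the list, measured 3.13, 3.73, 3.32 and 3.26 and was highest on replicate 2. These proteins bind unfolding proteins and keep them from aggregating. Of 12 members among the HSP70, HSP90 and HSP101 chaperones, 6 were variable (7.13% of all members), all with replicate 1 farthest and high (3.1%), with list medians of 4.90, 3.01, 3.15 and 3.07 on replicates 1 to 4. Both members with a symbol that met the test were among the 6. The first, HSP101, which pulls proteins out of aggregates, measured -1.25, -3.89, -3.45 and -4.13. The second, BIP1, the HSP70 of the endoplasmic reticulum, measured 5.32, 3.83, 4.12 and 4.06. Both were highest on replicate 1 with the other 3 arrays close together. Without replicate 1, 2 of the small heat shock members and 0 of the chaperones were variable. HSFA2A, a heat shock transcription factor gene named after its values were seen, measured -2.84, -4.12, -4.22 and -4.01.

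Variable genes with replicate 1 high were also found among the DREB1, jasmonate and WRKY lists. Of all members, 7.13% were variable and 3.1% variable with replicate 1 farthest and high. Of 8 members of the list of DREB1 factors and dehydrins, which also holds DREB2A and DREB2B, 4 were variable. All 4 had replicate 1 farthest and high, and all 4 were among the 7 with a symbol that met the test. DREB2B lacked a value on replicate 4 and so could not be called variable. DREB1A measured 2.06, 0.71, -1.25 and -0.13, whereas DREB1H measured 2.87, 2.73, 2.53 and 2.72 and was not variable. DHN1, a dehydrin gene, measured 2.12, 0.61, 0.02 and 0.62. Among 14 jasmonate members, 5 were variable, 4 with replicate 1 high, and all 5 were among the 12 with such a symbol. Irrespective of SD, replicate 1 was farthest and high in 5 of the 14, against 23% of all members. JAZ12 measured -2.20, -4.24, -4.34 and -5.59, and JAR1, which conjugates jasmonate to isoleucine, measured 1.37, 1.28, 1.41 and 1.40 with an SD of 0.06. Of 12 WRKY members, 4 were variable, all with replicate 1 high, of which 2 had a symbol that met the test. WRKY71 measured 2.15, 0.74, 0.23 and -0.43. Its second probe was also farthest and high on replicate 1, but with an SD of 0.47 it was not variable. Other genes named after their values were seen went both ways. PP2C30, a type 2C protein phosphatase, measured -1.24, -4.58, -4.84 and -4.66, and TPP1, a trehalose-6-phosphate phosphatase, measured -0.74, -4.25, -4.63 and -4.51, both highest on replicate 1. SAPK3, a stress-activated protein kinase gene, measured -1.35, -0.37, -0.13 and -0.59, lowest on replicate 1. The growth and sampling of single pools are not described in the labels, and what set replicate 1 apart was not tested.

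Aquaporins, also named after their values were seen, lay on both sides. PIP2-7 measured 2.61, 4.18, 4.43 and 4.23, lowest on replicate 1, and TIP1-2, a vacuolar aquaporin gene, measured 1.99, 0.86, 0.52 and 0.79, highest there. EXPA2, an alpha-expansin gene, measured -3.56, -1.17, -1.56 and -2.52 and was also lowest on replicate 1.

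Replicate 3 was low for photosynthesis genes by a small amount. It was the farthest array and low in 45 of the 63 (71.4%), against 15.9% of all members, and in 6 of the 8 with a symbol that met the test. It was the lowest array in 53 of the 63 (84.1%, against 31.8% of all members). The median difference of replicate 3 from the mean of the other 3 arrays was -0.29 for these genes and -0.01 for all members. Os07g0147500, a listed photosystem locus without such a symbol, went the other way by far more. It measured -2.17, -1.55, 1.66 and -2.71, and its second probe was also farthest and high on replicate 3. The count with replicate 3 farthest and low was 30 after quantile normalisation (47.6%, against 13.7% of all members). It was 31 in the authors' processed values (49.2%, against 12.6%), so it depended on how the arrays were scaled. GS2, the chloroplast glutamine synthetase, measured 5.41, 5.42, 4.88 and 5.25, and RPE measured 6.32, 6.57, 6.16 and 6.49. Of the 11 chlorophyll-synthesis genes, 9 had replicate 3 farthest and low, 6 of the 8 with such a symbol among them. CHLI measured 3.12, 3.16, 2.45 and 3.30. SODCP, the chloroplast copper/zinc superoxide dismutase gene, measured 4.45, 4.16, 3.30 and 4.08.

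Phosphate-starvation genes often varied with replicates 2 and 4 high. Of 12 members, 8 were variable (7.13% of all members), 6 of the 9 with a symbol that met the test among them. Replicates 2 and 4 were both above replicates 1 and 3 in 9 of 12 (15.8% of all members did so). This order was not particular to the list. It also held for 8 of 13 clock and 7 of 12 photorespiration members. In the Calvin cycle, photosystem and antenna lists it held for 8 of 15, 11 of 21 and 7 of 15. SPX1, whose protein senses inositol phosphates and holds back the phosphate response, measured 0.04, 1.20, 0.27 and 0.96. SPX3 measured -5.27, -3.75, -6.32 and -4.02, and SPX5 measured -4.31, -2.82, -4.15 and -3.29. PT1 and PT2, phosphate transporter genes, did not share this order, at -0.73, -0.60, -0.25 and -1.23 and -1.20, -1.24, -1.04 and -1.54. PORA, the protochlorophyllide oxidoreductase gene, measured -0.44, 1.35, -0.82 and 0.50, with replicates 2 and 4 above 1 and 3. Replicate 2 alone was high for CHT8, a chitinase gene named after its values were seen, at -3.16, -0.17, -4.67 and -4.43. Of the 5 variable pathogenesis-related members (5 of 10, against 7.13% of all members), 3 had replicate 2 farthest and high (0.886% of all members). Of the 3 members of that list with a symbol that met the test, 1 was variable. It was PBZ1, at 0.21, -1.02, -1.21 and -1.41, highest on replicate 1. Irrespective of SD, replicate 3 was farthest and low in 4 of the 10, against 15.9% of all members.

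**Figure D5:**
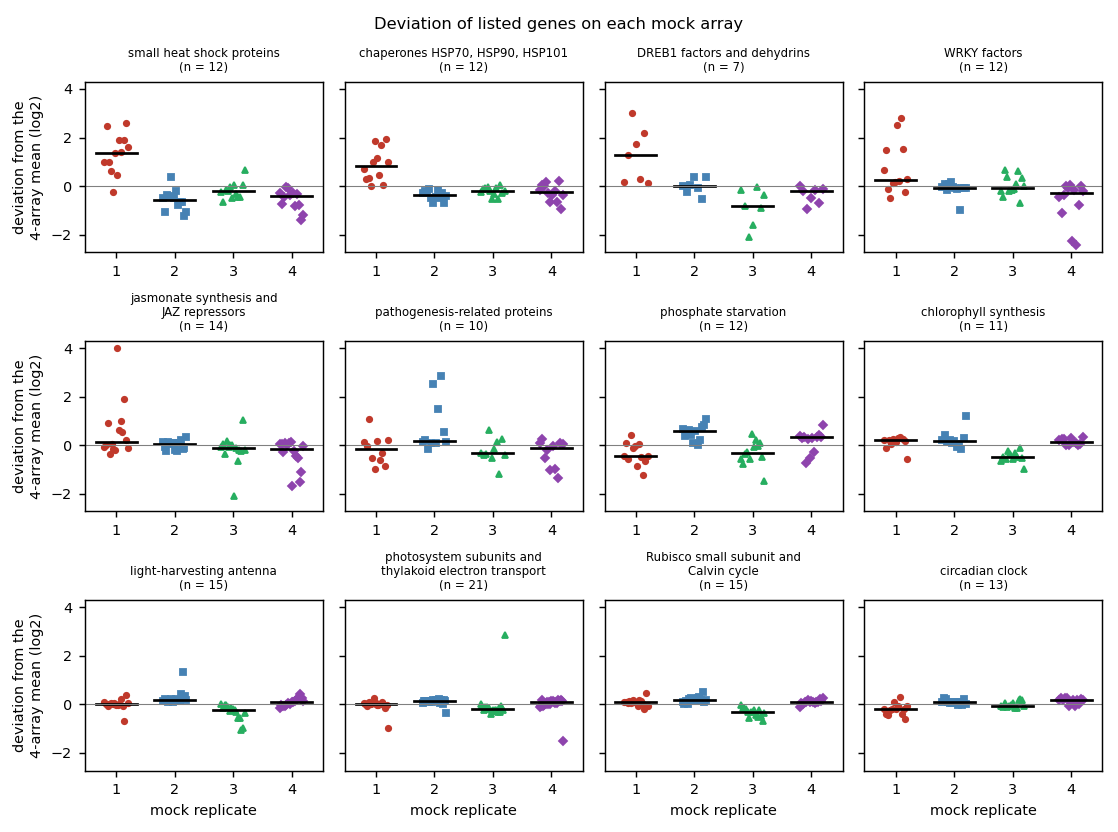
Deviation of each listed gene on each mock replicate (x axis) from its mean over the 4 arrays (y axis, log2), for 12 lists with the number of genes in parentheses; bars are medians. Replicate 1 lies above the others for the heat shock and chaperone lists, with a median of 1.38 for the small heat shock proteins, and replicate 3 lies below them for the photosynthesis and chlorophyll lists.

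At the other end, the least variable of the brighter 50% of members had SDs of up to 0.0131. Os08g0386900 measured -0.53, -0.53, -0.53 and -0.52 and Os01g0549700 measured 2.47, 2.49, 2.48 and 2.46. None of these 10 loci has a symbol that met the test. Among listed genes, GLN1;2, a cytosolic glutamine synthetase gene, measured 1.25, 1.22, 1.23 and 1.28, SODCC1, a cytosolic superoxide dismutase gene, 5.42, 5.39, 5.51 and 5.46, and the sucrose synthase gene SUS1 -4.27, -4.42, -4.40 and -4.38. Such small SDs are below the median spot-to-spot SD within an array, so their order among the steadiest genes carries no information.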

How the data were processed

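The authors' deposited files are the scanner output of 1-colour Agilent rice arrays made, per the file headers, with Feature Extraction 10.7.3.1. Their processed intensity is background-subtracted by that software, per the file headers. The authors' processed value table was used as an alternative. Its values are positive intensities and no label or header names their scaling. On replicates 1 to 4 they were near-constant multiples of the processed intensity, at 2.34, 2.50, 2.51 and 2.08. This alternative therefore differs from the main values by about 1 constant per array. From the 4 mock arrays, the log2 of the deposited intensity was taken and the 75th percentile over non-control probes subtracted. Outlier-flagged spots were left out, repeated spots averaged, and 1 probe kept per locus. With 1 group there is no contrast, so no test was run and no p-value is given. SDs are over 4 arrays, whose number limits the precision.

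Genes were named by rule: the 25 highest, the 25 most variable, the 10 least variable of the brighter 50%, and up to 4 of each list. The members and the 23 lists were chosen with earlier results of these data known. Locus names were recalled; no probe transcript of the files matched the RefSeq table by accession (0 loci). Some recalled names were dropped or corrected after a comparison with that table, so the count that met the test is flattered by this choice. The statistics were also run on simulated data in which every gene had the same noise. On the mock arrays the median SD was 0.17 in the brightest of 10 equal bins of level and 0.27 in the dimmest. The simulation therefore gives no rate of false calls for dim genes. Alternatives were quantile normalisation and normexp with an offset of 50 (limma 3.58.1, R 4.3.3), other filters, the mean over probes and leaving out each array. Python 3.11.15 was used with pandas 2.3.3 and numpy 2.4.6. No sequences or coordinates were used here.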

Additional observations from a re-analysis of the deposited data

Results flagged for a closer look

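A value was picked out where the gap between the highest or lowest of the 4 arrays and its nearest neighbour, as a share of the whole range, exceeded Dixon's critical value for 4 values. Chance picks out about 1 in 20 such groups, and 1470 of all 20883 members (7.04%) met the condition. The loci below were looked for only among genes picked by the naming rule or added to them. These include the 25 most variable genes and genes chosen after their values were seen, so neither rate applies to them. What set an array apart was not tested. Replicate 1 was higher than the others, by a share of the range that follows each name, for Os08g0500700 at 0.855, HSP24.1 (Os02g0758000) at 0.831, Os01g0184100 at 0.890, Os01g0840100 at 0.935, HSP17.4 (Os03g0266900) at 0.924, JAZ6 (Os03g0402800) at 0.914, Os01g0136200 at 0.883, Os04g0352400 at 0.920, Os05g0495700 at 0.864, Os08g0526100 at 0.890, Os03g0277300 at 0.846, TPP1 (Os02g0661100) at 0.903, DREB1E (Os04g0572400) at 0.879, HSFA2A (Os03g0745000) at 0.845, PP2C30 (Os03g0268600) at 0.927, Os01g0705700 at 0.869. Replicate 1 was lower than the others, by a share of the range that follows each name, for Os07g0529600 at 0.833, CATA (Os02g0115700) at 0.846, PIP2-7 (Os09g0541000) at 0.866, Os11g0547000 at 0.946. Replicate 2 was higher than the others, by a share of the range that follows each name, for Os01g0940700 at 0.858. Replicate 3 was lower than the others, by a share of the range that follows each name, for Os01g0279100 at 0.986, Os09g0439500 at 0.894, Os07g0129300 at 0.883, Os11g0114700 at 0.863. Os11g0114700 measured 0.19, 0.20, 0.17 and 0.19. Its SD of 0.011 is below the median SD between repeated spots of an array, 0.09 to 0.10. Replicate 4 was lower than the others, by a share of the range that follows each name, for Os01g0200700 at 0.873. Before scaling, this locus had intensities of 560755, 556243, 566348 and 554943 on replicates 1 to 4. The 75th percentiles taken off were 871, 850, 861 and 1000, so the low value on replicate 4 depends on that scaling. 

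The same condition was applied to whole-array summaries and to the median of each list with at least 4 members. Most list medians did not meet this condition. It was met by the share of signal in the 100 brightest members at 0.917, the 75th percentile of the processed signal at 0.858, the median level of Rubisco small subunit and Calvin cycle at 0.896, the median level of chlorophyll synthesis at 0.880, the median level of metallothioneins at 0.847, the median level of small heat shock proteins at 0.917, the median level of chaperones HSP70, HSP90, HSP101 at 0.924, the median level of pathogenesis-related proteins at 0.838, the median level of jasmonate synthesis and JAZ repressors at 0.942. Replicate 2 was apart and high for the share of signal and for the pathogenesis-related list, and replicate 4 was high for the 75th percentile. Replicate 3 was apart and low for the Calvin cycle and chlorophyll lists. For the metallothionein list replicate 3 was high, and that median is the value of 1 gene, Os05g0202800, at 0.18, 0.25, 0.79 and 0.27. Replicate 1 was apart and high for the heat shock, chaperone and jasmonate lists.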

How the results depend on the processing

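No paired analysis was possible because only 1 group enters and no test is run. The number of variable members was 1488, against 702 with normexp, 2854 with probes above background on at least 1 array, 4468 with no filter on dim probes, and 2980 where the SD had to be at least 2 times the median of the 500 nearest genes by level. The filters admit more dim genes, and for normexp the cause was not tested; of the 1488, 47.0% were variable with normexp and 91.3% with quantile normalisation. Leaving out 1 array gave 850 (without replicate 1) to 2053 variable members, 20948 to 21152 members and a share of 35.9 to 36.8% for the 100 brightest. The median percentile of the photosynthesis lists was 99.7225, against 99.7495 (at least 1 array), 99.8013 (no filter), 99.6125 (mean of a locus's probes) and 99.5933 (members with a symbol that met the test, added after seeing the data), and 99.71 to 99.73 without 1 array.

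Counts of variable list members without 1 array were 2 to 10 for small heat shock proteins, 0 to 7 for chaperones, 3 to 6 for pathogenesis-related proteins, 3 to 6 for WRKY factors, 3 to 7 for jasmonate and JAZ genes, 2 to 4 for DREB1 factors and dehydrins and 6 to 7 for phosphate starvation. Of all members, 4.05% (without replicate 1) to 9.71% (without replicate 4) were then variable. With probes above background on at least 1 array, 8 of 13 pathogenesis-related and 9 of 18 jasmonate members were variable, against 2854 of all 23137. With no filter the counts were 10 of 17 and 9 of 18, with 7 of 16 WRKY and 7 of 15 DREB1 members, against 4468 of all 29671. Restricted to symbols that met the test, small heat shock proteins gave 5 of 7, chaperones 2 of 2, pathogenesis-related proteins 1 of 3 and WRKY factors 2 of 3, since fewer genes were counted. Dim genes near background limit what 4 arrays can show.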

Other observations

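Neighbouring loci shared variability somewhat more often than the background. The next member along the chromosome by identifier was variable for 183 of 1485 variable members (12.3%, against 7.13% of all), and in 86 of those 183 pairs the same array was farthest in the same direction. Os07g0178700 and Os07g0178800, for example, measured 5.76, -0.04, -0.18 and 1.40, and 5.19, -0.10, -0.32 and 1.40. Of all variable members, 43.5% had replicate 1 farthest and high, so unrelated variable genes would also often agree in array and direction. How often they do was not computed. Whether neighbouring probes share sequence was not tested. The arrays ranked 1, 2, 4, 3 from highest to lowest in 343 of the 1488 variable members (23.1%) and in 8.66% of all members.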
